A study of Mus musculus with 2 samples.

Results

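Dense groups of N6-methyladenosine (m6A) sites were examined in the testis of control mice at 12 days post-partum. A site is 1 position, an interval of 5 nt with its chromosome and strand, that miCLIP called as methylated. The lists of replicates 1 and 2 were pooled and each position was kept a single time. Neighbours on the same strand whose starts were at most 1000 nt apart were joined, and the groups with 5 or more positions are called dense groups here. They numbered 146 of 8861 groups and held 944 of 12516 positions, or 7.54%. The members were chosen by their measured positions, so number, spacing and length of the groups are descriptions. Repetition on several lines and the direction along the strand did not enter the choice. Only neighbours on 1 strand were joined, but neither strand was preferred. A position in both lists counts a single time, so 2 unshared positions add more to a group than 1 shared position, and the shares of listed-in-both are not fully independent of the rule.

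The 2 samples form 1 group, control testes, and the labels give them as replicates 1 and 2 without saying whether they came from separate animals, so their spread may be technical. The study's notes name C57BL6, DBA2 and the B6D2F1 hybrid, without a strain for either sample, and give no allele for the controls. Mettl3 conditional knockout testes belong to the study's design and were not analysed here. The lists held 7019 and 7182 positions. They carry no read count or strength, so the depth behind a position is unknown, and absence from a list can mean either no reads or a failed threshold.

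m6A is the most common internal modification of messenger RNA. A methyltransferase complex with METTL3 as its catalytic subunit writes it, mostly within the DRACH sequence context, and reader proteins of the YTH family bind it. Along transcripts m6A is known to gather around stop codons, in the 3′ untranslated region and in long internal exons. In the male germ line, loss of METTL3 is known to disturb spermatogonial differentiation and the start of meiosis. In miCLIP an antibody against m6A is crosslinked to RNA fragments, and the methylated base is then read from cDNA mutations or truncations at the crosslink. The lists give no genes, and no genome or annotation of build mm9 was used here, so the dense groups are given by their mm9 coordinates (1-based) without gene names, transcript regions or sequences. For the same reason the testis label could not be checked against marker genes.

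Most dense groups were small. Groups of 5 positions numbered 62, groups of 6 numbered 43, groups of 7 or 8 numbered 26, and 15 groups had 9 or more positions and held 182 of the members. The median was 6 positions and the largest group had 27. At the threshold, 197 groups had exactly 4 positions and a median length of 619 nt, and the 62 groups with exactly 5 had a median length of 947 nt. The length of all dense groups ranged from 100 to 5406 nt with a median of 1199.5 nt. The largest class, 62 groups, was above 1000 and up to 2000 nt long. Only 4 groups fitted into 200 nt, and 7 were longer than 3000 nt. Density ranged from 1.59 to 50 positions per kb, with a median of 5.06. Groups of 4 had a higher median, 6.46 per kb, and reached 117.6 per kb. The rule thus picks longer chains of positions and not the highest density per kb. Because neighbours are joined in a chain, a group need not be dense throughout: 105 of the 146 groups held 5 or more positions within some 1 kb window, and these windows covered 653 of the 944 members.

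Spacing inside the dense groups was mixed, with close pairs and long stretches side by side. Over 798 gaps between neighbours, the median was 145 nt, with quartiles at 43 and 377.75 nt. Gaps of 4 to 10 nt made up 7.64% (61 gaps), gaps of up to 50 nt 27.2%, and gaps above 500 nt 17.8%. No gap was shorter than 4 nt. Positions in groups of 4 had the same median gap of 145 nt, and 7.28% of their gaps were 4 to 10 nt. In groups of 2, whose gaps are bounded by the same joining distance, the median was 184 nt and 7.59% were 4 to 10 nt. The median spacing in dense groups was therefore that of groups of 4 and shorter than that of groups of 2.

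Distances from dense groups to other positions and to each other are given as descriptions, because no such values were taken for smaller groups. The nearest other position on the same strand lay beyond the joining distance by rule, at a median of 14141.5 nt. It was within 5 kb for 56 groups and farther than 100 kb for 37. A single pair of dense groups lay within 100 kb of each other on 1 strand. Both are on the plus strand of chromosome 8, from 34686080 to 34687416 with 9 positions and from 34692125 to 34692845 with 5, and 4713 nt separate them (chosen after the values were seen).

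**Figure D1:**
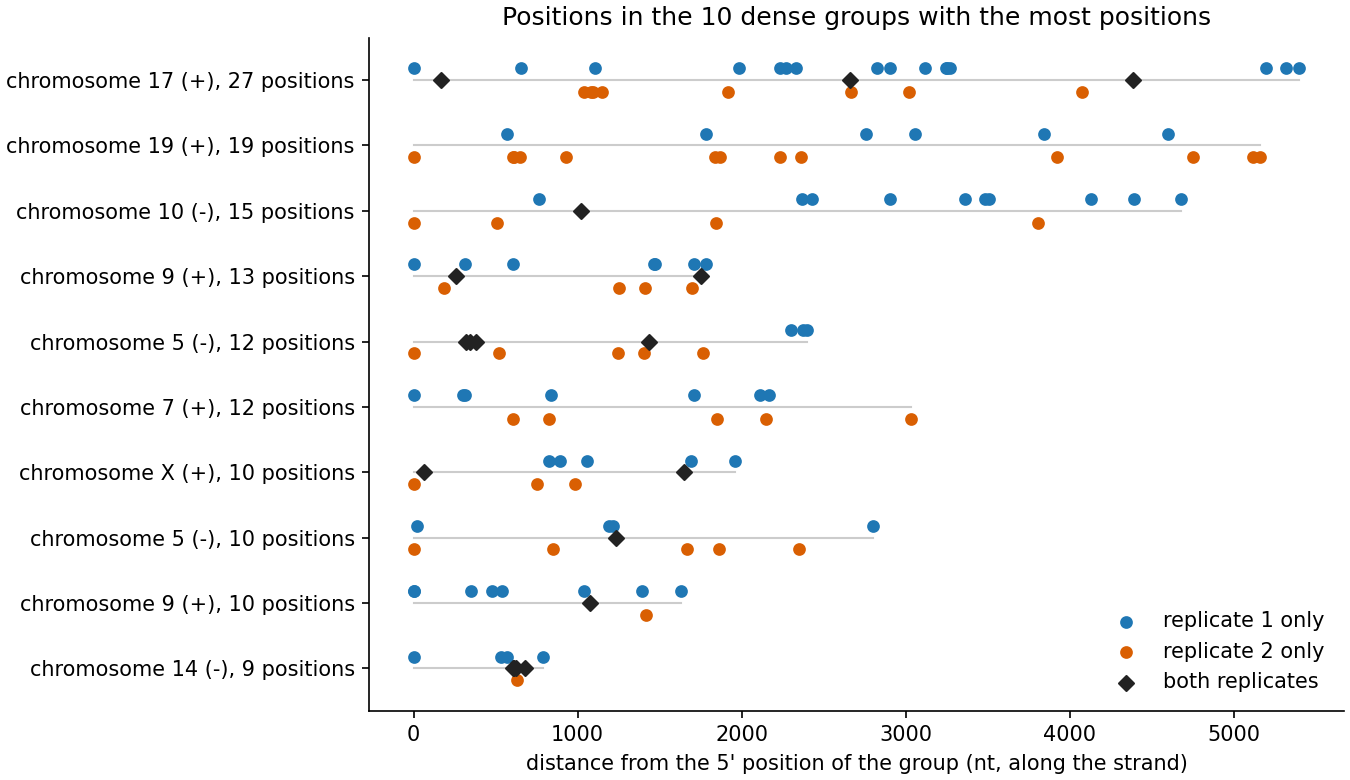
Positions in the 10 dense groups with the most positions, as distance in nt from the 5′ position along the strand; circles above the line mark positions of replicate 1 only, circles below it replicate 2 only, and diamonds both replicates. The group on chromosome 17 runs over 5406 nt with 27 positions, of which 3 are diamonds, and the groups of 19 and 12 on chromosomes 19 and 7 have no diamond.

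The largest group lay on the plus strand of chromosome 17, from 23952380 to 23957785. Replicate 1 listed 19 of its 27 positions and replicate 2 listed 11, and 3 were listed by both. The densest 1 kb of this group held 11 positions, the most in any 1 kb window of the pooled list. The map of the 10 largest groups shows replicate 2 positions bunched in the first part, 4 of them from 1039 to 1147 nt after the 5′ position, while replicate 1 alone supplied the 3 outermost 3′ positions, at 5200, 5317 and 5401 nt.

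The second largest group, on the plus strand of chromosome 19 from 40986447 to 40991614, had the opposite balance. Replicate 2 listed 13 of its 19 positions, replicate 1 listed 6, and none was listed by both, although positions of both replicates were interspersed over its 5168 nt. On the minus strand of chromosome 10, from 5988713 to 5993397, replicate 1 listed 11 of 15 positions and replicate 2 listed 5, with 1 in common. These 3 groups were also the longest. The first pair, with the group of 10 on the plus strand of chromosome 9 from 111267798 to 111269433 (9 positions in replicate 1 and 2 in replicate 2), had the largest differences between replicates, 8, 7 and 7 positions. A group of 7 on the plus strand of chromosome 3, listed by replicate 2 alone, also differed by 7.

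Other groups among the 10 largest had more even numbers. The group of 13 on the plus strand of chromosome 9, from 86648420 to 86650206, had 9 positions in replicate 1 and 6 in replicate 2, with 2 shared. On the minus strand of chromosome 5, the group of 12 from 92481464 to 92483869 had 7 and 9 positions and 4 shared ones, of which 3 lay 323 to 378 nt from the 5′ position. The group of 10 on the same strand, from 100463919 to 100466727, had 5 and 6 positions and 1 shared. A group of 12 on the plus strand of chromosome 7, from 130142787 to 130145825, had 7 and 5 positions and none in common. The X-linked group of 10 on the plus strand, from 109745460 to 109747423, had 7 and 5 positions and 2 shared. On the minus strand of chromosome 14, the group of 9 from 52817947 to 52818743 had 8 and 5 positions and 4 shared. All 9 lay within 797 nt, and 6 of its 8 gaps were 50 nt or shorter.

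The groups with the most positions per kb were small and compact. The densest lay on the plus strand of chromosome 3, from 84781451 to 84781550, with 5 positions in 100 nt. Replicate 2 listed 4 of them and replicate 1 listed the other, 91 nt from the 5′ position and between 2 positions of replicate 2. On the minus strand of chromosome 7, from 29678626 to 29678727, all 5 positions were in replicate 1 and 1 of them in replicate 2. A group of 5 on the minus strand of chromosome 9, from 56765719 to 56765879, had 3 and 2 positions and none shared. On the minus strand of chromosome 7, from 125278483 to 125278682, all 6 positions were in replicate 2, and the 3 of replicate 1 were among them. The fifth in density, on the minus strand of chromosome 11 from 4960685 to 4960886, had 4 and 2 positions and 1 shared.

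Both replicates contributed to nearly every dense group. Positions of both replicates were present in 141 of 146 groups, or 96.6% (95% Wilson interval 92.2 to 98.5%). The pooled lists were of similar length, so a high share follows in part from group size and is a description. Smaller groups have fewer chances to hold both: 180 of 197 groups of 4, 364 of 448 groups of 3 and 851 of 1370 groups of 2 did. The exceptions, given after their values were seen, had replicate 1 alone in 2 groups of 5 (minus strand of chromosome 15, from 79358697 to 79360812, and the plus strand of chromosome 18). Replicate 2 alone made up 3 groups. These were 7 positions on the plus strand of chromosome 3 from 41417436 to 41418268, 5 on the minus strand of chromosome 11 from 76859437 to 76859787, and 5 on the minus strand of chromosome 19 from 29790969 to 29792078. Intervals here and below cover counting error only.

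Many groups reached 5 positions only in the pooled list. In all, 12 groups had 5 or more positions in each replicate, 35 others had them in replicate 1 alone and 23 in replicate 2 alone, and 76 had them in neither. Replicate 1 listed 577 members and replicate 2 listed 504, a mean of 540.5 ± 51.6 (SD, n = 2). Although replicate 2 had the longer list, the members were 8.22% of replicate 1 (7.60 to 8.89%) and 7.02% of replicate 2 (6.45 to 7.63%). Replicate 1 had more positions in 80 groups, replicate 2 in 51, and 15 had equal numbers. Among positions of a single replicate, replicate 1 supplied 54.5% of the members and 48.8% of the other positions. The members were chosen by the positions of both replicates, so these shares and their difference of 5.70 percentage points are descriptions. They compare 2 libraries of unknown depth.

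**Figure D2:**
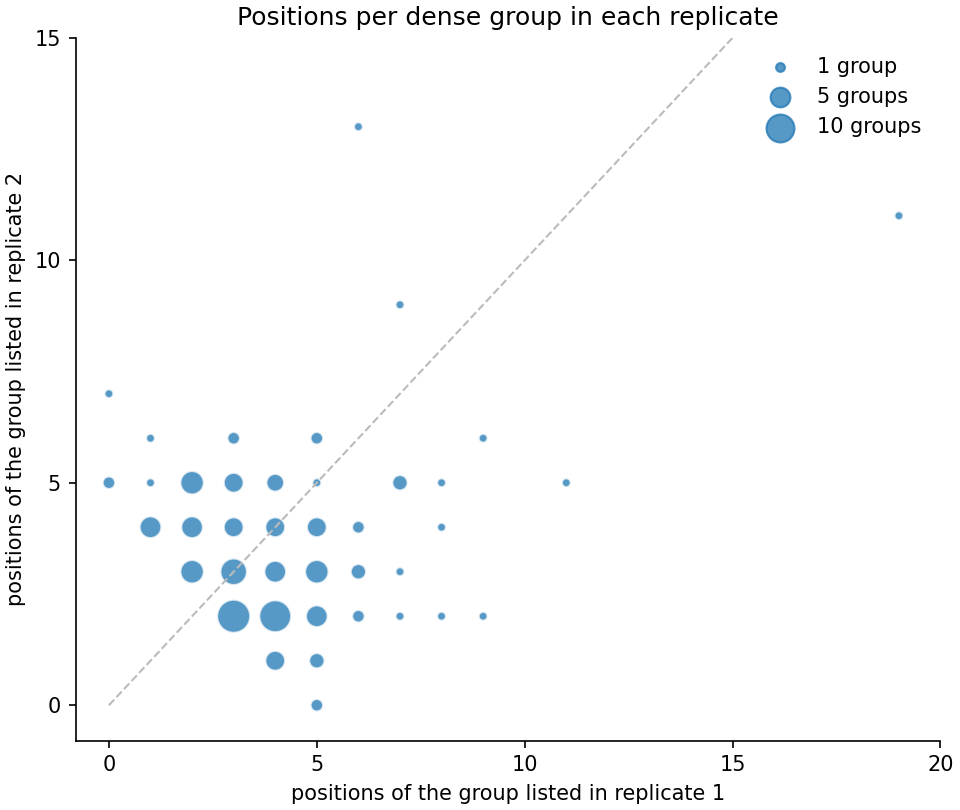
Number of positions listed in replicate 1 (x axis) and replicate 2 (y axis) for the 146 dense groups; the area of a circle gives the number of groups at that pair of values and the dashed line marks equal numbers. More groups lie below the line (80) than above it (51), and the group with 19 and 11 positions stands at the far right.

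Groups built from 1 replicate alone were then looked up in the other replicate, which had no part in the choice. Replicate 1 alone gave 41 groups of 5 or more, and 39 of them had a replicate 2 position on the same strand within the group or 1 kb around it, 95.1% (83.9 to 98.7%). In the other direction 26 of 29 groups did, 89.7% (73.6 to 96.4%). Groups of 4 had shares of 84.3% (74.01 to 90.99%) and 89.7% (79.2 to 95.2%), which differed from those of 5 or more by less than their intervals. For single positions the shares were 39.0% (37.6 to 40.4%) and 37.2% (35.9 to 38.6%). These matches, and the densities below, include identical positions listed in both replicates. Counting only unshared positions of the other replicate, the shares were 80.5% and 65.5% for groups of 5 or more. They were 57.1% and 56.9% for groups of 4, and 19.6% and 18.8% for single positions. Larger groups span a longer stretch and so have more chances of a match. Per kb of group and flanks, replicate 2 had 0.924 positions around the groups of 5 or more in replicate 1. It had 0.719 around groups of 4, 0.578 around groups of 3 and 0.246 around single positions. For replicate 1 around replicate 2 groups, these were 1.13, 0.863, 0.630 and 0.234 per kb. The density thus rose with group size below 5 as well. On the opposite strand, 0 of the 41 and 0 of the 29 groups had a position of the other replicate in the same window, which allows shares of up to 7.32% and 10.3% (3 groups of each total). For single positions the opposite-strand shares were 0.852% and 0.831%, below these limits, so the counts of 0 show no difference from them. The groups of 5 or more had a median of 3 positions of the other replicate in both directions.

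**Figure D3:**
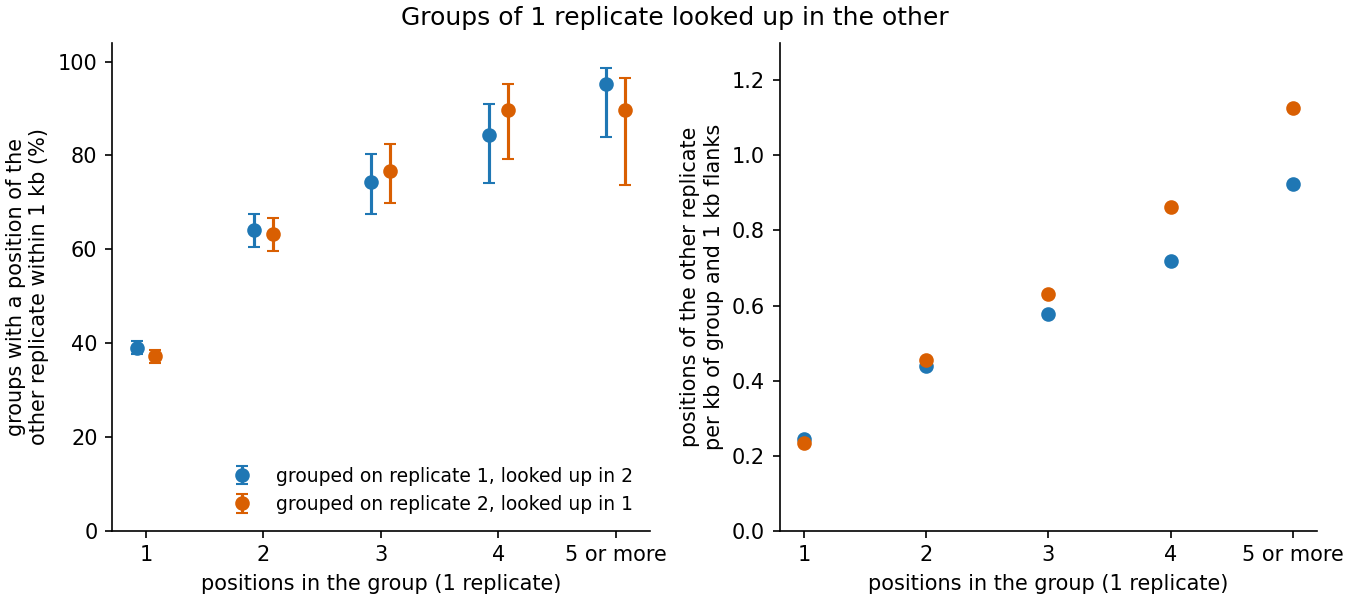
Groups built from 1 replicate, by number of positions (x axis), looked up in the other replicate on the same strand; the left panel gives the share of groups with a position of the other replicate within 1 kb (%, bars are 95% Wilson intervals) and the right panel the positions of the other replicate per kb of group and flanks. The left shares are 39.0% and 37.2% for single positions and 95.1% and 89.7% for groups of 5 or more, and groups of 4 already stand at 84.3% and 89.7%.

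The recurrence of exact positions was then compared between dense groups and the rest of the list. Of the 944 members, 137 were listed in both replicates, 14.5% (12.4 to 16.9%), and the background over all positions was 13.5%. Outside the dense groups the share was 13.4% (12.8 to 14.0%). The difference of 1.14 percentage points had a 95% interval of -1.67 to 3.94, with joined groups as the units, so a larger or smaller share was not detectable. Within replicate 1, 23.7% of its members recurred against 24.0% of its other positions, a difference of -0.286 points (-4.52 to 3.95). Within replicate 2 the shares were 27.2% and 23.2%, a difference of 4.002 points (-0.878 to 8.88). By group size the shares were 13.5% for groups of 5, 17.1% for groups of 6, 14.4% for groups of 7 or 8 and 12.6% for groups of 9 or more.

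**Figure D4:**
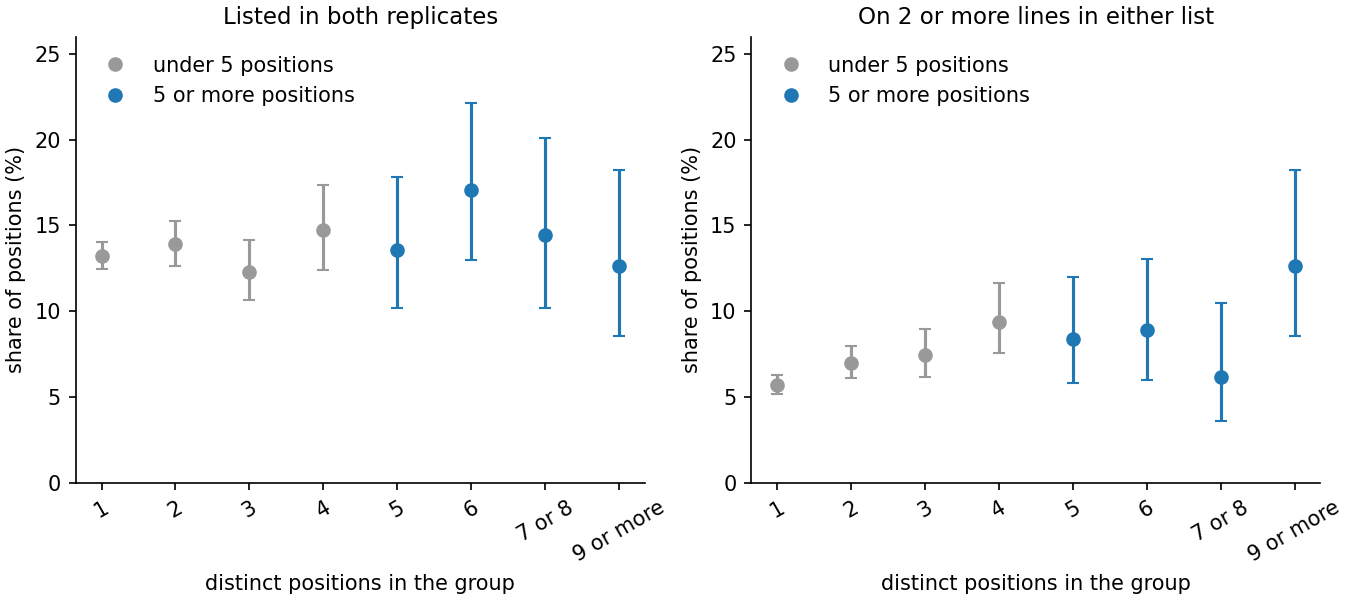
Share of pooled positions (%) listed in both replicates (left) and on 2 or more lines in either list (right), by the number of distinct positions in their group; bars are 95% Wilson intervals, grey marks groups under 5 and blue the dense groups. The left shares lie between 12.3% and 17.1% with overlapping bars, and the right shares are lowest for single positions (5.69%), with no steady order among the dense groups (6.19% for groups of 7 or 8 and 12.6% for groups of 9 or more).

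Shared positions were spread unevenly over the groups. At least 1 was present in 80 of the 146 groups, 54.8% (46.7 to 62.6%), while 37 groups had 2 or more and 14 had 3 or more. Of the groups of 4, with fewer positions to be shared, 86 of 197 had at least 1. In 10 groups the shared positions were at least as many as the unshared ones. The highest share was on the minus strand of chromosome 1, from 135517571 to 135518734, where all 5 positions of replicate 1 were among the 6 of replicate 2. Next came a group on the minus strand of chromosome 19, from 24550935 to 24551258, where all 4 positions of replicate 1 were among the 5 of replicate 2. Its 4 shared positions had their central bases at 24550937, 24550941, 24550947 and 24550955, a run of close neighbours, and the remaining position lay 301 nt away.

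The group of 5 on the plus strand of chromosome 1, from 20926304 to 20927047, had 5 positions in replicate 1 and 3 in replicate 2, all 3 shared. On the plus strand of chromosome 17, from 39980005 to 39981905, replicate 1 listed all 5 and replicate 2 listed 3. Here no gap was shorter than 112 nt, so recurrence was not limited to tight runs. The group of 8 on the minus strand of chromosome 13, from 29042238 to 29043506, had 7 and 5 positions with 4 shared. Those 4 had central bases at 29043477, 29043489, 29043493 and 29043504, and the outermost position at each end was listed by both or by replicate 2 alone.

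Inside dense groups, recurrence was higher among members with a neighbour 4 to 10 nt away. Members with a neighbour 4 to 10 nt away numbered 111, and 36 of them, 32.4% (24.4 to 41.6%), were listed in both replicates. Members whose nearest neighbour lay farther away recurred in 12.1% of cases. The difference was 20.3 percentage points (9.24 to 31.4, groups as units). By distance, the share was 14.3% at 11 to 50 nt, 9.81% at 51 to 200 nt and 12.7% above 200 nt, with no steady order. Of all 137 shared members, 36 had a neighbour at 4 to 10 nt. Members at 4 to 10 nt also stood on several lines more often, 16.2% against 6.59%, 8.23% and 8.88% at the farther distances. Whether repetition on several lines accounts for their recurrence was not tested. In groups of 2 to 4, positions with a neighbour at 4 to 10 nt recurred in 15.7% of cases and the others in 13.4%, a difference of 2.28 points (-1.74 to 6.31). At that distance, members recurred more often than positions of smaller groups, by 16.8 points (5.14 to 28.4).

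These close members lay in 48 dense groups, of which 22 had a shared position among them. The 3 groups with the most of them were those on chromosome 19 from 24550935, on chromosome 13 from 29042238 and on chromosome 14 from 52817947, with 10 of the 36. Without these 3 groups the difference within members was 14.2 points (4.24 to 24.2), and that between members and smaller groups fell to 10.6 points (0.0638 to 21.1). The same held when neighbours were taken from 1 replicate alone and the position was looked up in the other. Membership of a dense group still came from the pooled list, so the other replicate had a part in the choice of members. Of the 61 members of replicate 1 with such a neighbour in replicate 1, 49.2% were in replicate 2, against 20.7% of its other members (difference 28.4 points, 12.2 to 44.7). For the 45 of replicate 2 these shares were 60% and 24.0% (difference 36.0 points, 19.8 to 52.3). Outside the dense groups the differences were 2.41 points (-6.73 to 11.6) in replicate 1 and 8.29 points (0.549 to 16.03) in replicate 2. The distance to the nearest position was examined after the shared positions of single groups had been seen.

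**Figure D5:**
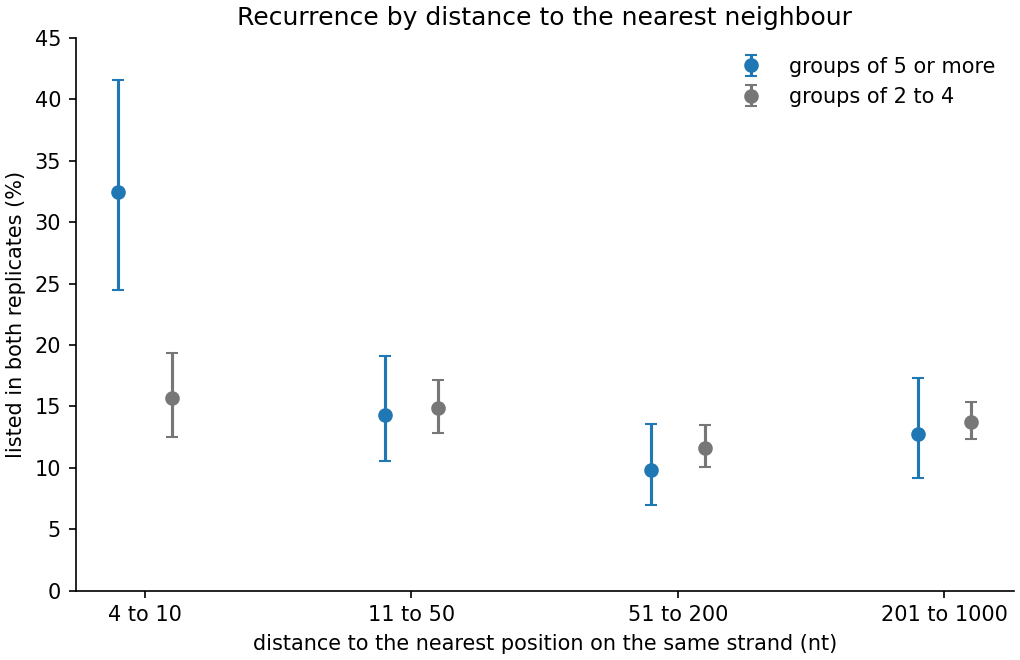
Share of positions listed in both replicates (%, bars are 95% Wilson intervals) by the distance in nt to the nearest position on the same strand, for dense groups (blue) and groups of 2 to 4 (grey). At 4 to 10 nt the dense groups stand at 32.4% and the smaller groups at 15.7%, and at the other distances their bars overlap.

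Adjacent members that were both shared lay closest together. Among the 798 pairs of adjacent members, 30 had both positions shared, with a median gap of 18.5 nt, and 12 of them were 10 nt apart or less. Many of these close pairs lay in 3 groups named above. Their gaps were 4, 6 and 8 nt on chromosome 19, 4 nt on chromosome 13, and 10 and 7 nt on chromosome 14. No median was taken without these groups, and pairs in smaller groups were not compared. Pairs of 2 replicate 1 positions numbered 179, with a median gap of 155 nt. Pairs of 2 replicate 2 positions numbered 128 (median 166 nt), and mixed pairs of 1 position from each replicate numbered 276 (median 146 nt). Gaps of 4 to 10 nt made up 6.15% of the first kind, 3.91% of the second and 5.07% of the mixed pairs. Pairs with 1 shared position were not close as a rule: the median gap was 147 nt in 106 pairs with a replicate 1 position and 229 nt in 79 pairs with a replicate 2 position, with 9.43% and 11.4% at 4 to 10 nt.

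Shared members also lay more often inside a group than at its ends. Of the 652 inner members 16.6% were shared (13.9 to 19.6%), against 9.93% of the 292 outermost ones (7.004 to 13.9%), a difference of 6.63 points (2.52 to 10.7). Among members without a neighbour at 4 to 10 nt this was 4.24 points (0.0163 to 8.46). In groups of 3 or 4 the difference was -0.781 points (-3.60 to 2.04). The comparison of inner and outermost members was not planned beforehand. It was not repeated with other joining distances or minimum sizes.

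Members stood on several lines of a list more often than other positions. The meaning of a repeated line is not given. In either list, 84 members were repeated, 8.90% (7.24 to 10.9%), against a background of 6.63% over all positions and 6.45% outside the dense groups. The difference was 2.45 percentage points (0.567 to 4.34, groups as units). In replicate 1, 9.53% of its members and 6.63% of its other positions were repeated (background 6.87%, difference 2.90 points, 0.377 to 5.43). In replicate 2 the shares were 7.94% and 6.36% (background 6.47%, difference 1.57 points, -0.718 to 3.86), and the interval included 0. There was no step at the threshold of 5: single positions were repeated in 5.69% of cases, those in groups of 2 in 6.97%, of 3 in 7.44% and of 4 in 9.39%. Inside the dense groups the share was 8.39% in groups of 5, 8.91% in groups of 6, 6.19% in groups of 7 or 8 and 12.6% in groups of 9 or more, with overlapping intervals. With a joining distance of 500 nt the difference was 2.03 points (-0.376 to 4.44) and no longer stood clear of 0.

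Repetition went with recurrence among members as elsewhere. In replicate 1, 45.5% of the 55 repeated members were in replicate 2 (33.0 to 58.5%), against 21.5% of the 522 on 1 line (18.1 to 25.2%). In replicate 2, 47.5% of 40 repeated members were in replicate 1 (32.9 to 62.5%), against 25.4% of 464 (21.7 to 29.6%). With line number held fixed, members and other positions did not differ detectably in recurrence. The difference was 0.187 points (-2.38 to 2.76) for positions on 1 line and 4.57 points (-7.70 to 16.8) for repeated ones.

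Dense groups were more often on the plus strand of the genome. There were 91 on the plus and 55 on the minus strand, a plus share of 62.3% (54.2 to 69.8%), and 50.7% of the smaller groups (49.7 to 51.8%) were on the plus strand. The difference was 11.6 percentage points (3.45 to 19.1, Newcombe interval over groups). Pooled groups of 4 had a plus share of 53.8% (46.8 to 60.6%), and this interval overlaps that of the dense groups. The strand comparison was not planned beforehand. Plus groups were in the majority on 15 chromosomes, minus groups on 3 (chromosomes 7, 19 and X), and 2 had equal numbers. Groups of 5 or more built from 1 replicate alone had 25 of 41 (45.7 to 74.3%) and 17 of 29 (40.7 to 74.5%) on the plus strand, and neither stood clear of the smaller groups. In replicate 2 alone, the plus share was 67.2% (54.4 to 77.9%) in groups of 4 and 58.7% (51.3 to 65.8%) in groups of 3. In replicate 1 alone these were 52.9% and 51.2%. A plus excess in replicate 2 was thus not limited to groups of 5 or more. With a minimum of 6 positions the difference was 9.89 points (-0.855 to 19.7). With a joining distance of 2000 nt it was 6.39 points (-0.409 to 12.9).

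Opposite-strand positions were counted around members. Within 1 kb of a member, an opposite-strand position was found for 5 of 944 members, 0.530% (0.226 to 1.23%), against 1.14% of other positions (0.963 to 1.35%) and a background of 1.09%. The difference of -0.611 points had an interval of -1.68 to 0.457, so none was detectable. All 5 belong to the single group of 5 on the minus strand of chromosome 11 from 4960685 to 4960886, which puts groups of exactly 5 at 1.61% of positions (0.691 to 3.72%).

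The order of positions along the strand gave no direction that held across the data. The gap at the 3′ end was shorter than that at the 5′ end in 90 of 146 dense groups, 61.6% (53.6 to 69.1%). In groups of 4 it was shorter in 90 of 197, 45.7% (38.9 to 52.7%). Groups built from replicate 1 alone gave 23 of 41 and from replicate 2 alone 13 of 29.

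All 19 autosomes and the X chromosome carried dense groups, from 2 on chromosome 16 to 15 each on chromosomes 7 and 11, and the Y chromosome and unplaced contigs, with 5 and 19 positions, carried none. Chromosome 11 has the most positions of all (1099), yet none of its 15 groups had more than 6 positions, and 7.73% of its positions were members (6.30 to 9.46%). On chromosome 7 this share was 10.5% (8.69 to 12.7%), with a largest group of 12. The highest share was on chromosome 17, 12.2% (9.99 to 14.9%), and the lowest on chromosome 16, 2.77% (1.51 to 5.02%). Without the group of 27 the share on chromosome 17 was 8.60%, and without the group of 19 that on chromosome 19 was 7.42% in place of 11.4%. These intervals treat positions as independent, which positions of 1 group are not.

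The X chromosome had 6 dense groups with 48 members, in groups of 10, 9, 9, 8, 7 and 5 positions. The median was 8.5 positions per group, and the mean of 8 lay below those of chromosomes 17 (8.3) and 19 (8.33), which include the 2 largest groups. Of its 411 positions 11.7% were members (8.92 to 15.1%), 14.8% in replicate 1 and 9.57% in replicate 2. The X chromosome made up 5.08% of the members and 3.14% of the other positions. With groups as the units, the difference of 1.95 points had an interval of -2.12 to 6.02, so a larger share than on the other chromosomes was not detectable over 6 groups.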

How the data were processed

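Per the labels' protocols, mRNA of control testes was used for miCLIP and sequenced in pairs. Per the submitters' processing notes, CASAVA, BWA 0.7.10 and the build mm9 were used; for the caller of the sites and any filter, nothing is given in the sources used here. The deposited lists give 5 nt intervals with no numeric value (7549 and 7697 lines), so the depth is unknown and precision rests on the number of positions.

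Positions were pooled and joined as described above. Shares have 95% Wilson intervals. Where given, 95% intervals for differences between members and others come from a linearised variance with joined groups as clusters, unless named otherwise. On 400 simulated lists the code found all groups, and at least 94.0% of the intervals held the true difference. The simulated positions were shared independently of each other, so the check does not cover correlation within a group. The intervals for close neighbours and for inner members were not simulated. Regions were named by rule: the 10 groups with most positions, 5 densest, 3 longest, 5 with the highest shared share and 3 with the largest replicate difference, 20 in all. The members and measures were chosen with earlier results of these data known. Joining distance, minimum size, merging, strand and replicates were varied. The tools were matplotlib 3.10.9, SciPy 1.17.1, pandas 2.3.3, NumPy 2.4.6 and Python 3.11.15.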

Additional observations from a re-analysis of the deposited data

How the results depend on the processing

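Of 111 alternative values for 12 results, 76 stayed within their limits, 27 moved, 7 lost a call and 1 changed sign. The limits were 1.5 times for counts, 1 SD between replicates or the 95% interval for shares and medians, and the side of 0 for differences. The settings that left out the 3 largest groups or used 1 kb windows, and all those for strand and for the outer gaps, were chosen after seeing the data. A joining distance of 500 nt gave 96 dense groups, 560 members, a median gap of 107.5 nt, a median length of 689.5 nt, a difference of 2.03 points in repeated positions and 51.04% of groups with the shorter gap at the 3′ end. A distance of 2000 nt gave a median gap of 188.5 nt, a length of 1772 nt and a plus-strand difference of 6.39 points. A minimum of 4 positions gave 343 groups, 1732 members, a length of 845 nt and 52.5% with the shorter 3′ gap. A minimum of 6 gave 84 groups, a length of 1418 nt, 98.8% of groups with both replicates, 0% with an opposite-strand position (a count of 0 allows up to 3.57%) and a plus-strand difference of 9.89 points. Merging within 5 nt left all 12 results within their limits, with a difference in shared share of 0.158 points. Ignoring strand did so for the 9 results it can be applied to.

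Groups built without replicate 1 or without replicate 2 numbered 29 and 41, with 165 and 249 members. They are fewer by construction, and their shared share, 28.5% and 23.7%, is out of 1 list and not the pool. The difference in shared share was 5.14 and -0.323 points, both with intervals that included 0. The difference in repeated positions was 1.44 and 2.46 points and that in plus strand 7.42 and 10.6 points, no longer clear of 0. The median gap was 164.5 and 193 nt, the length 1187 and 1401 nt, the share of groups with the other replicate inside 89.7% and 92.7%, that with an opposite-strand position 0% in both, and that with the shorter 3′ gap 44.8% and 56.1%. No paired analysis was possible because the samples form a single group. The causes of these changes were not tested. The unknown depth limits every statement on positions missing from a list.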
